A study of Homo sapiens with 2 samples.

Results

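The miR-30 family was followed through small RNA libraries of an oral squamous cell carcinoma line and of its invasive derivative. Members were chosen by name, before any filter on level, as the listed mature products of both hairpin arms, and all 10 of the listed names were found among the 1213 entries of the deposited table. Of these, 5 are 5p arms (miR-30a-5p, miR-30b-5p, miR-30c-5p, miR-30d-5p and miR-30e-5p) and 5 are 3p arms (miR-30a-3p, miR-30b-3p, miR-30c-1-3p, miR-30c-2-3p and miR-30e-3p). The tested culture was UM-SCC6-M, obtained from UM-SCC6 by 3 rounds of collecting, from a microfluidic chip, the cells that had crossed a matrix channel. The other culture was the parental line UM-SCC6, which had no such selection per the labels. No genetic change or drug is named for either culture, and passage numbers are not stated in the labels. The submitters describe UM-SCC6-M as strongly invasive with some mesenchymal traits. Each culture gave 1 library, so the differences below have no replicate check and no test between conditions was made. Summed over the entries, 7699490 reads were recovered for UM-SCC6-M and 8182958 for UM-SCC6. A read given to more than 1 entry would count more than once in these sums.

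MicroRNAs (miRNAs) are short RNAs that guide Argonaute proteins to messenger RNAs and lower their output, mainly through pairing of the seed, bases 2 to 8 of the mature strand. Each is cut from a hairpin whose 5p and 3p arms form a duplex, and usually the strand of 1 arm is kept far more than the other. The miR-30 family is known in epithelial cells for its 5p strands, which are reported to repress SNAI1, a transcription factor that drives loss of epithelial character, and the autophagy gene BECN1. Its hairpins lie in pairs at separate loci, and miR-30c is encoded at 2 of them.

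The mature strands are shown to make clear which members share a seed and how little separates the pair that differed most between the libraries. Sequences are from RefSeq (GRCh38.p14), written 5′ to 3′ with the seed in capitals, and 7 of the 10 members matched an entry. miR-30b-5p, miR-30b-3p and miR-30d-5p are named only.
miR-30a-5p: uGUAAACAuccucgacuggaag
miR-30e-5p: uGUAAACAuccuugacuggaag
miR-30c-5p: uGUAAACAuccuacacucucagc
miR-30a-3p: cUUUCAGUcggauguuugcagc
miR-30e-3p: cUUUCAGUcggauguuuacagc
miR-30c-2-3p: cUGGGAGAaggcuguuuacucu
miR-30c-1-3p: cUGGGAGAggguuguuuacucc

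The 5p strands of miR-30a, miR-30e and miR-30c share the seed GUAAACA and their first 12 bases. Counting from 1 at the 5′ end, miR-30a-5p and miR-30e-5p differ at a single position, C13U, whereas miR-30a-5p and miR-30c-5p differ at 5 of the 22 positions compared (C13A, G14C, G18C, G19U and A20C). The 3p strands fall into 2 other seed groups. UUUCAGU is shared by miR-30a-3p and miR-30e-3p, which differ by G18A, and UGGGAGA by miR-30c-1-3p and miR-30c-2-3p, which differ at 3 positions. Among 2370 mature human miRNAs of that table, GUAAACA was found in the 3 strands printed here, UUUCAGU in 2 and UGGGAGA in 3, the third being miR-6788-5p. No sequence was matched for miR-30b-5p or miR-30d-5p, so they could not enter the count of GUAAACA. With 1 base between miR-30a and miR-30e on each arm, a read with an error at that base can be given the wrong name, and the labels do not state how such reads were assigned.

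The hairpins of miR-30a and miR-30e are shown because their 5p strands were lower in UM-SCC6-M and their 3p strands were not. The 5p and the 3p arm are in capitals.
MIR30A: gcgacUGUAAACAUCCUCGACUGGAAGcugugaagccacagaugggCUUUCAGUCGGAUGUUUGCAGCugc
MIR30E: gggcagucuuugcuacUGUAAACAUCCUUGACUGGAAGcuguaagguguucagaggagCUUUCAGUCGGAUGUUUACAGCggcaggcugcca

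MIR30A lies at chr6:71403551-71403621 on the minus strand, in an intron of the long noncoding RNA genes LINC00472 and AL136164.2 in GENCODE release 29 (GRCh38). MIR30C2 lies in introns of the same genes at chr6:71376960-71377031, 26519 bases away. MIR30E is at chr1:40754355-40754446 and MIR30C1 at chr1:40757284-40757372, both on the plus strand in an intron of NFYC, which encodes a subunit of the CCAAT-binding factor NF-Y, with 2837 bases between them. MIR30B and MIR30D form the remaining pair, on chromosome 8.

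Among the 5p strands, UM-SCC6-M had more than 3-fold lower values of miR-30a-5p and miR-30e-5p, a lower value of miR-30d-5p by a smaller factor, and slightly higher values of miR-30c-5p and miR-30b-5p. Values are normalized reads, the read signal as scaled by the authors, and ratios are UM-SCC6-M over UM-SCC6. Intervals are exact 95% intervals that cover counting error only and take each read as an independent draw. Reads copied by PCR are not independent molecules, so these intervals can be too narrow. In bulk libraries such as these, fewer cells of a type and less RNA per cell cannot be told apart.

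miR-30a-5p, the strand named in reports on SNAI1 and BECN1, had 24005 normalized reads in UM-SCC6-M, against 83974 in UM-SCC6. It was 3.50-fold lower in UM-SCC6-M (interval 3.48 to 3.52), a log2 ratio of -1.81, on 201034 and 631927 reads. miR-30e-5p, which differs from it by 1 base, had 432 normalized reads in UM-SCC6-M and 1566 in UM-SCC6. It was 3.62-fold lower in UM-SCC6-M (3.49 to 3.76), a log2 ratio of -1.86. Although miR-30a-5p was 55.5 times as abundant as miR-30e-5p in UM-SCC6-M and 53.6 times in UM-SCC6, the log2 ratios of these strands differed by 0.05, with an interval of -0.0042 to 0.10 that includes 0.

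miR-30d-5p, reported in melanoma to repress the glycosyltransferase gene GALNT7, had 7845 normalized reads in UM-SCC6-M and 12559.9 in UM-SCC6. It was 1.60-fold lower in UM-SCC6-M (1.59 to 1.62), a log2 ratio of -0.68. Its other arm, miR-30d-3p, is not among the listed names and was added after its values were seen. It had 17.6 normalized reads in UM-SCC6-M and 28.4 in UM-SCC6, a log2 ratio of -0.69 (-1.01 to -0.39). Both arms of miR-30d were therefore lower in UM-SCC6-M, by a like amount.

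miR-30c-5p, reported to repress the actin regulator gene TWF1 and the matrix signalling gene CTGF, had 8229 normalized reads in UM-SCC6-M and 6634 in UM-SCC6, a log2 ratio of 0.31 (0.29 to 0.33). miR-30b-5p, whose hairpin neighbours that of miR-30d, had 1281 normalized reads in UM-SCC6-M and 1207 in UM-SCC6, a log2 ratio of 0.09 (0.05 to 0.13). These strands, known to carry the family seed, lay on the other side of 0 from miR-30a-5p.

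The 3p strands that reached 50 normalized reads were at most 1.18-fold apart. miR-30a-3p, cut from the same hairpin as miR-30a-5p, had 4173 normalized reads in UM-SCC6-M and 3726 in UM-SCC6, a log2 ratio of 0.16 (0.14 to 0.19). miR-30e-3p, reported in glioma to repress the NF-kB inhibitor gene NFKBIA, had 632 normalized reads in UM-SCC6-M and 604 in UM-SCC6, a log2 ratio of 0.07 (0.01 to 0.12). miR-30c-2-3p, reported to repress the stress response factor XBP1, had 587 normalized reads in UM-SCC6-M and 495 in UM-SCC6, a log2 ratio of 0.24 (0.18 to 0.31). On the authors' scaling these 3p strands were thus slightly higher in UM-SCC6-M, and their counting intervals lay above 0. The median log2 ratio of all miRNAs that reached 50 normalized reads was 0.04, which lies within the interval of miR-30e-3p.

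The remaining members were scarce. miR-30c-1-3p had 107 reads in UM-SCC6-M and 89 in UM-SCC6 and a log2 ratio of 0.11 (-0.31 to 0.53). miR-30b-3p had 50 reads in UM-SCC6-M and 33 in UM-SCC6, and a log2 ratio of 0.44 (-0.22 to 1.13). In normalized reads miR-30c-1-3p stood at 12.8 in UM-SCC6-M and 11.8 in UM-SCC6, and miR-30b-3p at 5.97 in UM-SCC6-M and 4.39 in UM-SCC6. Both intervals include 0, so a difference in these strands was not detectable at this depth.

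**Figure D1:**
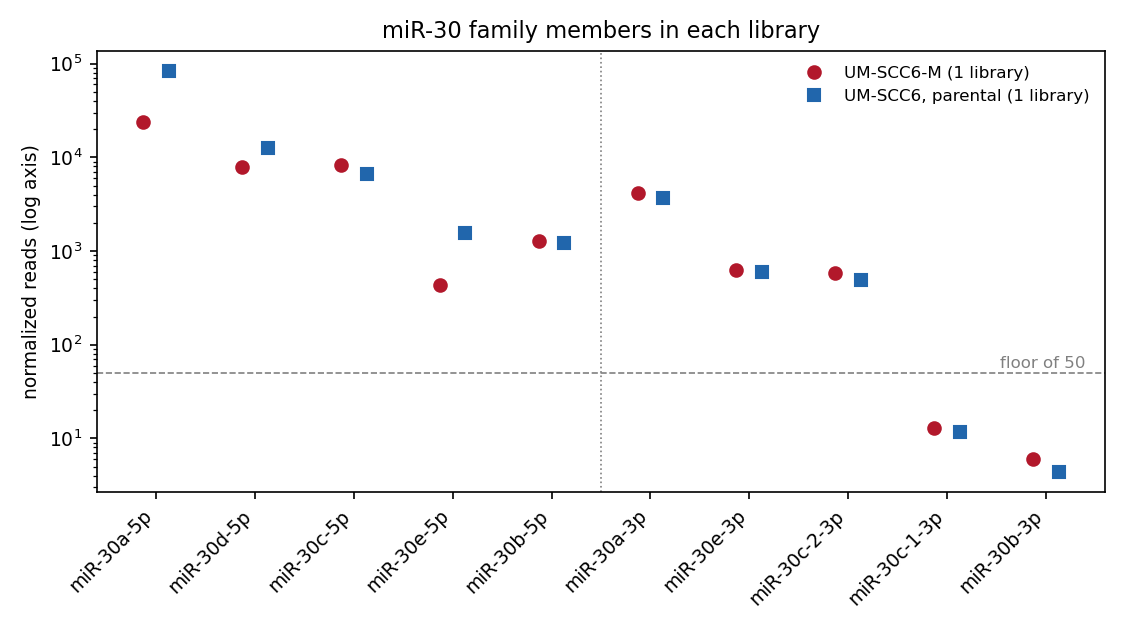
Normalized reads (log axis) of the 10 miR-30 members, 5p strands left of the dotted line and 3p strands right of it, with 1 point for the UM-SCC6-M library (circle) and 1 for UM-SCC6 (square). The points of miR-30a-5p and miR-30e-5p stand farthest apart, at 24005 against 83974 and 432 against 1566 normalized reads, and the 3p points of each member lie close together.

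With 1 library per group, a miRNA was called by size, as 2-fold or more apart where the higher library held 50 or more normalized reads. Of the 10 members, 8 reached that floor, 5 of them 5p and 3 of them 3p strands, and miR-30c-1-3p and miR-30b-3p did not. At least 2-fold lower in UM-SCC6-M were 2 members, miR-30a-5p and miR-30e-5p, where 12.8% of all 179 miRNAs at that floor were (23 miRNAs). No member was at least 2-fold higher, where 7.26% of the miRNAs at the floor were (13 miRNAs). The median log2 ratio was 0.08 over the 8 members at the floor and 0.04 over the 179 miRNAs. Over all members it was -0.68 for the 5 5p strands and 0.16 for the 5 3p strands. When the libraries were scaled to their total reads, 20 of the 179 were called lower and 22 higher, and the same members were called. That scaling raised each log2 ratio, and hence the median over the 179 miRNAs, by 0.24.

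**Figure D2:**
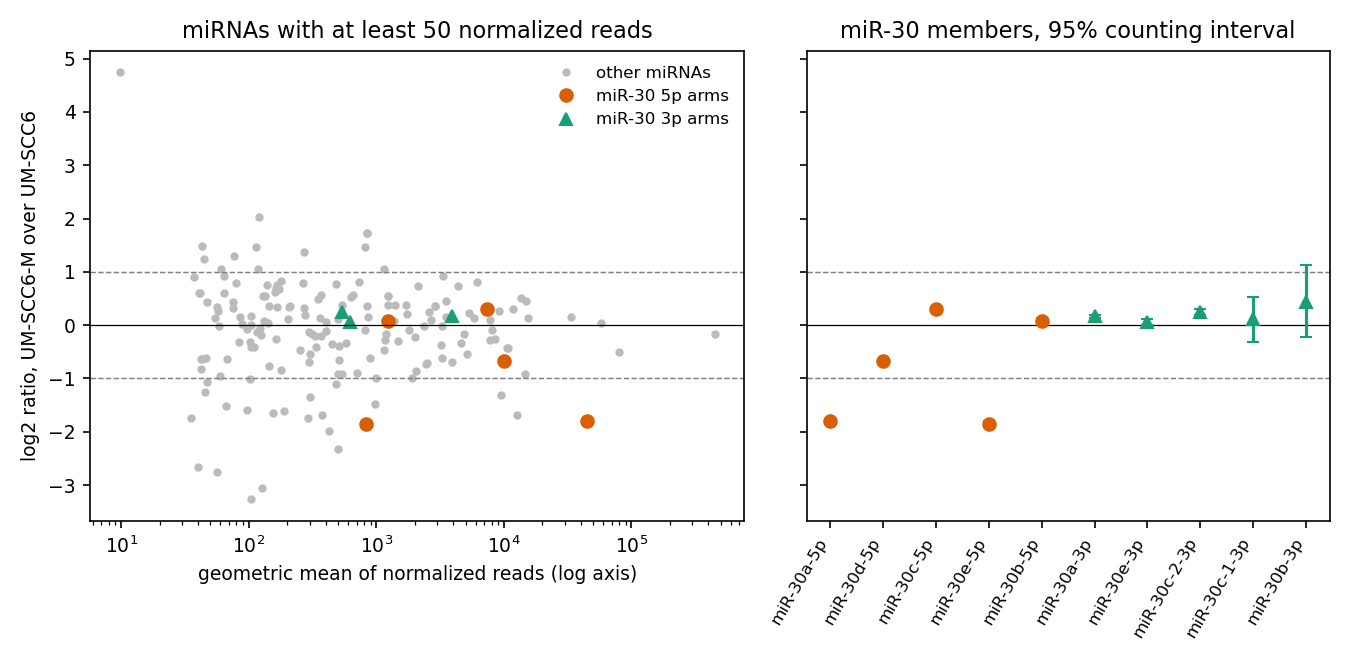
Left, log2 ratio of UM-SCC6-M over UM-SCC6 against the geometric mean of normalized reads in the libraries (log axis) for the 179 miRNAs with at least 50 normalized reads, miR-30 5p strands as orange circles and 3p strands as green triangles. Right, the log2 ratio of each of the 10 members with its 95% counting interval, which for the abundant strands is smaller than the symbol, and miR-30a-5p at -1.81 and miR-30e-5p at -1.86 lie below the dashed 2-fold line.

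Few abundant miRNAs had such ratios. At 1000 or more normalized reads in the higher library there were 70 miRNAs, 6 of them miR-30 members, and 6 of the 70 were at least 2-fold lower in UM-SCC6-M. In that range miR-96-5p had the lowest log2 ratio, followed by miR-30e-5p and miR-30a-5p. miR-96-5p and miR-30e-5p reached 1000 normalized reads in UM-SCC6 only, so their place in this range rests on that library. Among the 179 miRNAs at the floor of 50, 6 had a lower log2 ratio than miR-30e-5p and 7 a lower one than miR-30a-5p. The 3 non-members nearest to miR-30a-5p in log2 ratio were miR-100-5p at -1.68, miR-200a-5p at -1.49 and miR-148a-3p at -1.32, a likeness that rests on 2 libraries. For comparison, miR-100-5p had 7107 normalized reads in UM-SCC6-M and 22784 in UM-SCC6.

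By share of the library, miR-30a-5p differed more than any other miRNA with reads known in both cultures toward a lower value in UM-SCC6-M. It made up 2.61% of the recovered reads in UM-SCC6-M (exact interval 2.60 to 2.62) and 7.72% in UM-SCC6 (7.70 to 7.74), a difference of -5.11 percentage points. It ranked 5 by abundance among the miRNAs of UM-SCC6-M and 3 among those of UM-SCC6. The next lower differences in share were those of let-7i-5p at -1.49 and miR-100-5p at -1.32 percentage points. On the authors' scaling the miR-30a-5p value was lower by 59969 normalized reads in UM-SCC6-M, equal to 35.7% of the difference between the column sums of 919341 in UM-SCC6-M and 1087359 in UM-SCC6.

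The 5p strands were then summed. Ligation and amplification favour some small RNAs over others, so a sum or an order over members counts reads and not molecules. The 5 strands together had 41792 normalized reads in UM-SCC6-M and 105941 in UM-SCC6, a log2 ratio of -1.34 (2.53-fold lower, interval 2.52 to 2.55). Without miR-30a-5p the log2 ratio of the sum was -0.30, with 17788 normalized reads in UM-SCC6-M and 21967 in UM-SCC6, so the sum rests mainly on that strand. The 5 3p strands together had 5410 normalized reads in UM-SCC6-M and 4841 in UM-SCC6, a log2 ratio of 0.16 (0.14 to 0.18). As shares of all recovered reads, the 5p strands held 4.55% in UM-SCC6-M and 9.74% in UM-SCC6, and the 3p strands held 0.588% in UM-SCC6-M and 0.445% in UM-SCC6.

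The make-up of the 5p pool differed between the cultures, and that of the 3p pool did so far less. miR-30a-5p held 57.4% of the 5p reads in UM-SCC6-M (57.3 to 57.6) and 79.3% in UM-SCC6 (79.2 to 79.4). miR-30c-5p held 19.7% in UM-SCC6-M and 6.26% in UM-SCC6. miR-30d-5p held 18.8% in UM-SCC6-M and 11.9% in UM-SCC6. These shares show miR-30c-5p above miR-30d-5p in UM-SCC6-M and below it in UM-SCC6. miR-30b-5p held 3.07% in UM-SCC6-M and 1.14% in UM-SCC6, and miR-30e-5p held 1.03% in UM-SCC6-M and 1.48% in UM-SCC6.

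In the 3p pool, miR-30a-3p held 77.1% of the reads in UM-SCC6-M (76.7 to 77.5) and 77.0% in UM-SCC6 (76.5 to 77.4). miR-30e-3p held 11.7% in UM-SCC6-M and 12.5% in UM-SCC6, and miR-30c-2-3p held 10.8% in UM-SCC6-M and 10.2% in UM-SCC6. The intervals of miR-30e-3p (11.4 to 12.0 in UM-SCC6-M, 12.1 to 12.8 in UM-SCC6) and of miR-30c-2-3p (10.6 to 11.1 in UM-SCC6-M, 9.91 to 10.5 in UM-SCC6) do not overlap, so these shares differed by more than counting error, though by under 1 percentage point. Read from the listed 3p strands, the proportions among the miR-30a, miR-30e and miR-30c hairpins were thus close in both cultures. Among their 5p strands, the proportion of miR-30c-5p to miR-30e-5p differed by 2.17 on the log2 scale (2.11 to 2.22). That of miR-30a-5p to miR-30e-5p differed by 0.05, with an interval that includes 0. For miR-30a-3p to miR-30e-3p the difference was 0.10 (0.04 to 0.16). The 3p pool does not cover miR-30d, because miR-30d-3p is not among the listed names, while the 5p pool holds miR-30d-5p.

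**Figure D3:**
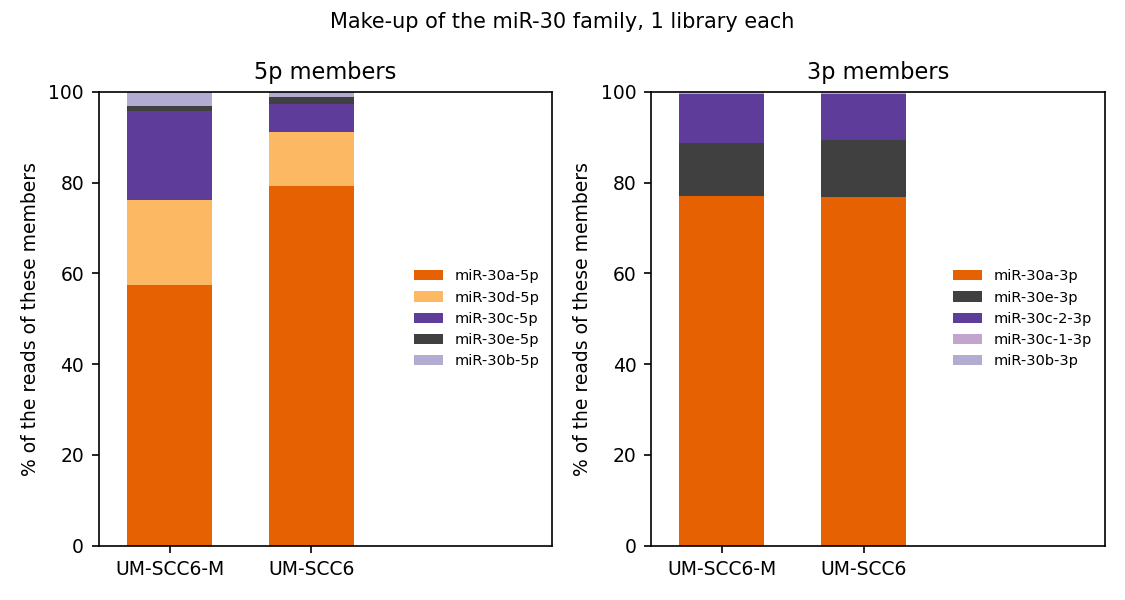
Share of each member in the reads of the 5 5p strands (left) and of the 5 3p strands (right), in percent, with 1 bar for the UM-SCC6-M library and 1 for UM-SCC6. miR-30a-5p holds 57.4% of the 5p bar in UM-SCC6-M and 79.3% in UM-SCC6, while miR-30a-3p holds 77.1% of the 3p bar in UM-SCC6-M and 77.0% in UM-SCC6.

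In the order of levels, every pair of neighbouring members differed by more than counting error in both libraries. The order in UM-SCC6-M was miR-30a-5p, miR-30c-5p, miR-30d-5p, miR-30a-3p, miR-30b-5p, miR-30e-3p, miR-30c-2-3p, miR-30e-5p, miR-30c-1-3p and miR-30b-3p. In UM-SCC6 miR-30d-5p stood before miR-30c-5p, and miR-30e-5p stood at place 5, ahead of miR-30b-5p, miR-30e-3p and miR-30c-2-3p. The closest neighbours were miR-30c-5p and miR-30d-5p in UM-SCC6-M, at 68915 and 65701 reads.

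The arms of each hairpin were compared within a library, which removes the scaling. For miR-30a the 5p strand was 5.75 times as abundant as the 3p strand in UM-SCC6-M and 22.5 times in UM-SCC6. It made up 85.2% of the reads of both arms in UM-SCC6-M (85.0 to 85.3) and 95.8% in UM-SCC6 (95.7 to 95.8). The log2 ratio of 5p to 3p was 2.52 in UM-SCC6-M and 4.49 in UM-SCC6, a difference of -1.97 with a counting standard error of 0.012. The 5p strand was thus the major arm in both cultures.

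By the names given to the reads, the major arm of miR-30e was not the same in the cultures. The 5p strand made up 40.6% of the reads of both arms in UM-SCC6-M (39.6 to 41.7) and 72.2% in UM-SCC6 (71.5 to 72.9). Its log2 ratio of 5p to 3p was -0.55 in UM-SCC6-M and 1.37 in UM-SCC6, a difference of -1.92 with a counting standard error of 0.040. The 3p strand had more reads than the 5p strand in UM-SCC6-M, at 5294 against 3622, and fewer in UM-SCC6, at 4547 against 11788. miR-30a-5p, 1 base away, had 55.5 times the reads of miR-30e-5p in UM-SCC6-M and 53.6 times in UM-SCC6. For miR-30a-3p over miR-30e-3p the factors were 6.60 in UM-SCC6-M and 6.17 in UM-SCC6. How far misnamed miR-30a-5p reads enter the miR-30e-5p count, and so the exchange of arms, was not tested.

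Hairpins whose arms each reached the floor numbered 30, and 30% of them had an arm balance at least 1 log2 unit apart in either direction. Toward the 3p arm in UM-SCC6-M by that amount were 13.3% (4 hairpins), and miR-30a and miR-30e had the lowest values of the 30. The hairpins nearest to miR-30a in this measure were miR-30e, miR-455 at -1.66 and miR-181a at -1.47. The median difference of the 30 was -0.07, and the largest counting standard error 0.14. Among the 30, miR-423 at 0.19 and miR-3184 at -0.18 had near-equal values with the arms reversed. They may hold the same reads under both names, so the 30 may not all be separate. The major arm was exchanged in 3 of the 30, which were miR-30e, miR-181a and miR-374a. Of these, miR-374a went toward the 5p arm, at 55.0% 5p reads in UM-SCC6-M and 42.8% in UM-SCC6. Because miR-30a and miR-30e reads are separated by 1 base, they were also pooled per arm, which was chosen after the data were seen, and the pooled difference was -1.96. Most of the pooled reads were of miR-30a.

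**Figure D4:**
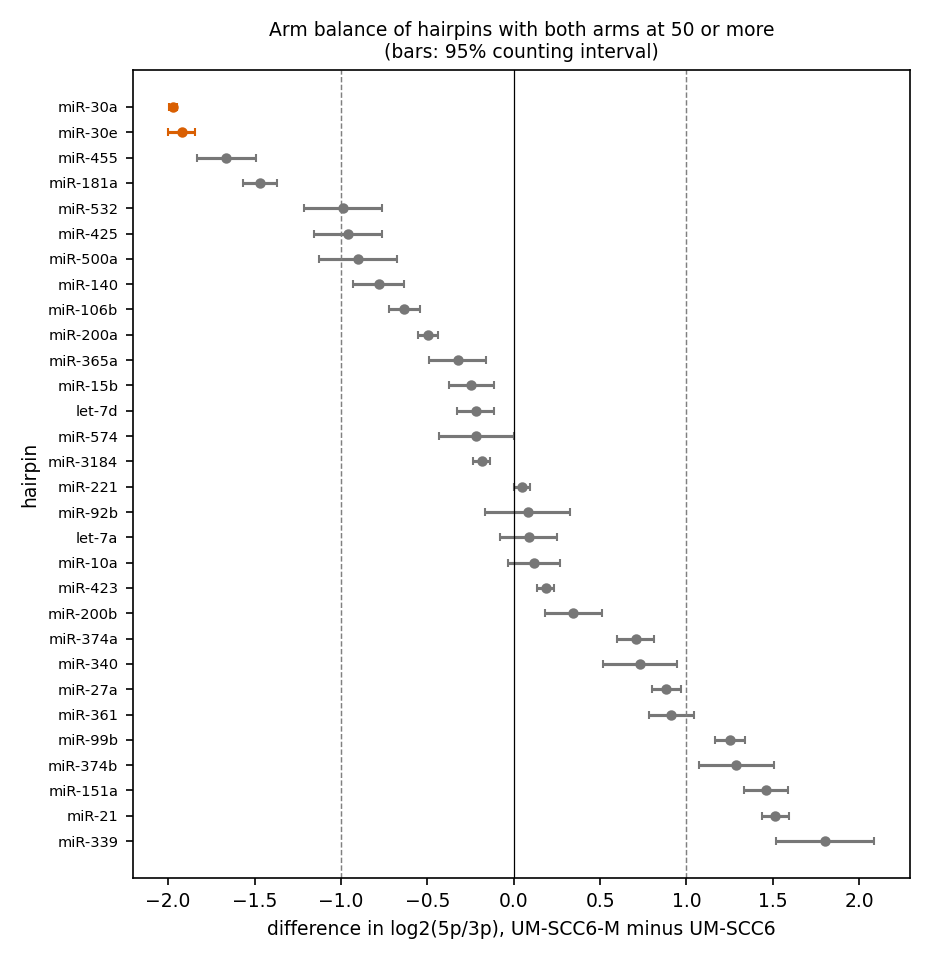
Difference in log2(5p/3p), UM-SCC6-M minus UM-SCC6, for the 30 hairpins with both arms at 50 or more normalized reads, with 95% counting intervals as bars and miR-30a and miR-30e in orange. These hairpins lie at the top with -1.97 and -1.92, farthest toward the 3p arm in UM-SCC6-M.

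miR-30c gave another pattern. Its 5p strand is identical from MIR30C1 and MIR30C2, while its 3p strands tell the loci apart. miR-30c-2-3p supplied 97.9% of the miR-30c 3p reads in UM-SCC6-M (97.4 to 98.2) and 97.7% in UM-SCC6 (97.1 to 98.1), a log2 change in the proportion of the 3p strands of 0.13 (-0.28 to 0.54). Set against the 3p reads of both loci, the 5p strand made up 93.2% in UM-SCC6-M (93.0 to 93.4) and 92.9% in UM-SCC6 (92.7 to 93.1). The log2 ratio of 5p to 3p was higher by 0.07 in UM-SCC6-M (interval 0.01 to 0.13), which is beyond counting error but small beside the differences of miR-30a and miR-30e. For the hairpins on chromosome 8, whose 3p strands lie under the floor, the arm balance differed by 0.02 for miR-30d and by -0.35 for miR-30b, with counting standard errors of 0.15 and 0.32.

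Members from 1 locus were set side by side. On chromosome 6, miR-30a-3p had 7.11 times the reads of miR-30c-2-3p in UM-SCC6-M (6.91 to 7.33) and 7.53 times in UM-SCC6 (7.27 to 7.79). On chromosome 1, miR-30e-3p had 49.5 times the reads of miR-30c-1-3p in UM-SCC6-M (40.9 to 60.5) and 51.1 times in UM-SCC6 (41.4 to 63.7). On the log2 scale the chromosome 6 proportion differed by -0.08 (-0.15 to -0.02), beyond counting error, and the chromosome 1 proportion by -0.05 (-0.46 to 0.36), an interval that includes 0. On chromosome 8, miR-30d-5p had 6.12 times the reads of miR-30b-5p in UM-SCC6-M and 10.4 times in UM-SCC6, a log2 difference of -0.77 (-0.81 to -0.72).

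The other miRNAs reported to repress the transcription factors SNAI1, SNAI2, ZEB1, ZEB2 or TWIST1 were listed for comparison. Of 15, 12 had an entry and 6 reached the floor, of which 1 was at least 2-fold lower in UM-SCC6-M, none at least 2-fold higher and 5 within 2-fold, where 12.8% of all miRNAs at the floor were called lower and 7.26% higher. Their median log2 ratio was -0.55, beside 0.04 over the 179 miRNAs. The called member was miR-1-3p, a muscle miRNA, with 109 normalized reads in UM-SCC6-M and 333 in UM-SCC6. miR-200b-3p, which represses ZEB1 and ZEB2, was the most abundant, at 17481 normalized reads in UM-SCC6-M and 12823 in UM-SCC6, with a log2 ratio of 0.45. The other members at the floor were miR-200a-3p at a log2 ratio of -0.99 (1.99-fold lower), miR-34a-5p at -0.64, miR-101-3p at -0.46 and miR-429 at -0.09. Of these, miR-34a-5p had 34.5 normalized reads in UM-SCC6-M and 53.8 in UM-SCC6. It passed the floor only through UM-SCC6, where it was higher, and the median of -0.55 rests partly on it.

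Markers of cell types were read from the same table. Of 8 epithelial and squamous markers, 6 had an entry and 4 reached the floor, none of them 2-fold apart, with summed levels of 19717 normalized reads in UM-SCC6-M and 16443 in UM-SCC6. The sum follows miR-200b-3p, whereas miR-200a-3p, miR-429 and miR-31-5p (log2 ratio -0.07) had lower values in UM-SCC6-M, and the median log2 ratio of the 4 was -0.08. Among the other markers, miR-203a-3p had 2.75 normalized reads in UM-SCC6-M and was listed at 0 in UM-SCC6, and miR-200c-3p had fewer than 3 in each library. No entry under these names was found for miR-205-5p and miR-141-3p. The 7 stromal markers summed to 113 in UM-SCC6-M and 64.6 in UM-SCC6, with miR-214-3p, miR-127-3p and miR-145-5p listed at 0. Of these miR-199b-5p alone reached the floor and was at least 2-fold higher, with 87.2 normalized reads in UM-SCC6-M and 42.0 in UM-SCC6. It reached the floor only in UM-SCC6-M, so this call rests on the library where it was higher. miR-199a-3p had 21.9 in UM-SCC6-M and 10.5 in UM-SCC6, and miR-143-3p lay the other way, with 4.06 in UM-SCC6-M and 10.4 in UM-SCC6. miR-199a-5p also lay the other way, listed at 0 in UM-SCC6-M and at 1.73 in UM-SCC6. The endothelial arms of miR-126 summed to 550.5 in UM-SCC6-M and 986.1 in UM-SCC6, but they went opposite ways. miR-126-3p had 519.9 normalized reads in UM-SCC6-M and 968.3 in UM-SCC6, and miR-126-5p had 30.6 in UM-SCC6-M and 17.8 in UM-SCC6. The blood markers summed to 17.9 in UM-SCC6-M and 24.6 in UM-SCC6, with miR-142-3p, miR-142-5p and miR-451a listed at 0. The muscle markers summed to 111 in UM-SCC6-M and 337 in UM-SCC6, with miR-133b listed at 0. Their part in the miR-30 differences was not tested.

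In the authors' deposited table, 44 entries carry a mark of selection, and miR-30a-5p and miR-30e-5p are the miR-30 members among them. That table gives 8 of the 10 members a q-value under 0.05, the 8 that reached the floor. Of all entries with a q-value 17.6% were under 0.05, and of the miRNAs at the floor 75.4%, so this count is no result about the family. These figures compare the libraries and not the conditions.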

How the data were processed

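Each library used 3 µg of total RNA as input, and gel-cut fragments of 140 to 160 bp were sequenced, per the labels' protocols. Bowtie is named without a version in the submitters' processing notes. Not given in the sources used here are genome build, miRNA database, counting and scaling. The deposited signal values (normalized reads) are read counts multiplied by the authors by 1 factor per library. Values above 0 were whole multiples of 1 step, within 7.2e-05 reads, worth 0.119 in UM-SCC6-M and 0.133 in UM-SCC6. Values below 1 are listed as 0. The log2 fold changes, p-values and q-values are the authors' comparison per the file headers, and were copied but not used to call.

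Reads were recovered by dividing by the step, and their totals are sums over the entries. Some entries of different names had near-equal values, such as miR-374b-5p at 1541 and miR-374c-3p at 1540 normalized reads in UM-SCC6-M. Totals, shares and counts over all miRNAs may therefore hold the same reads more than once. Log2 ratios used 0.5 added reads. Intervals are Clopper-Pearson 95%, and those of differences between log2 ratios or arm balances use counting standard errors. Reads in both libraries were known for 543 of 1178 named miRNAs. Members, lists and rules were chosen with earlier results of these data known. All members were named, with the 3 nearest abundant miRNAs and the 3 nearest hairpins, and other miRNAs after their values were seen. Calculations were tested on simulated data. Alternatives were other scalings, floors, fold limits, added reads, the deposited fold changes, pooled reads and intervals wholly beyond 2-fold. Python 3.11.15, numpy 2.4.6, pandas 2.3.3, scipy 1.17.1 and matplotlib 3.10.9 were used.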

Additional observations from a re-analysis of the deposited data

How the results depend on the processing

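No paired analysis was possible because each culture gave 1 library. Of 60 alternative values of single members, 0 changed sign, and 28 moved beyond the counting interval. The count of 2 members at least 2-fold lower held under each scaling, added read number and floor tried, was 3 at 1.5-fold and 0 at 4-fold. The median log2 ratio of the 10 members was 0.10, and 0.34 with scaling to total reads. The log2 ratio of the summed 5p strands was -1.10 scaled to total reads, -1.31 by median of ratios, -1.24 without the 10 most abundant miRNAs in the total, -1.18 without the miR-30 members in the total, and -0.30 without miR-30a-5p. The arm balance differences of miR-30a and miR-30e cannot move with the scaling, which cancels within a library. Other scalings are therefore no check on them. With 5 added reads, and from the deposited fold changes, they were -1.97 and -1.92. The pooled reads are mostly those of miR-30a, so the pooled value says little about miR-30e. Over all miRNAs, the lower and higher calls numbered 45 and 21 at a floor of 10, 15 and 6 at a floor of 200, 107 and 59 with no floor, 46 and 32 at 1.5-fold, 5 and 2 at 4-fold, and 20 and 22 scaled to total reads, the cause of these changes being the changed floor, limit or scaling itself. Depth limits miR-30c-1-3p and miR-30b-3p.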
